A study of Rattus norvegicus with 4 samples.

Results

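The genes described here encode proteins of the mitochondrial ribosome. They were taken as all protein-coding genes of the deposited table whose symbol starts with Mrpl or Mrps followed by a digit, where Mrpl stands for the large and Mrps for the small ribosomal subunit. Of 15172 genes listed, 74 met this rule (44 Mrpl and 30 Mrps genes), and 73 of them were among the 13953 genes with enough reads to be tested. The exception was Mrps21l, on chromosome 18, with estimated counts of 6 and 3.34 in the siScramble and 3 and 4 in the siTbk1 libraries.

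Polyadenylated RNA was sequenced from INS-1 832/13 cells, a clonal rat insulinoma line that secretes insulin in response to glucose. The cells were transfected for 36 h with a non-targeting siRNA (siScramble, the control group) or with a pool of siRNAs against Tbk1, which encodes TANK-binding kinase 1 (siTbk1), in the same medium and with no other treatment. Each group holds 2 libraries, numbered 2 and 3 in the labels. All libraries stem from 1 tumour-derived clone, and nothing in the labels says that they came from separate cultures, so the p-values measure the spread between these libraries, which may be technical. In such bulk samples, fewer cells of a type and less RNA per cell cannot be told apart.

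The total count per library lay between 38428926 and 47759013, and every tested mitochondrial ribosomal protein gene had between 168 and 5392 counts in every library. Normalised read counts below are counts scaled with TMM factors to a common library of 43105384 reads. Tbk1 itself had normalised read counts of 2315 and 2261 in the siScramble and 510.4 and 575 in the siTbk1 libraries (log2 fold change -2.08, SE 0.076, adjusted p = 3.74e-08 by edgeR's quasi-likelihood test). Of 8 β-cell markers, 7 had a value here. A value means only that the gene is listed, as some markers of other cell types were too, so this count does not check the cell type. Ins1 had 10512 and 11320 CPM (counts scaled to a library of 1000000 reads) in the siScramble and 7407 and 6132 CPM in the siTbk1 libraries. Chga had 5371 to 5925 CPM. Ins2, Pdx1 and Slc2a2 were also lower in both siTbk1 libraries, whereas Iapp and Nkx6-1 were higher in both. Iapp had 933 and 1009 CPM in the siScramble and 1192 and 1244 CPM in the siTbk1 libraries. Nkx6-1 had 27.1 and 25.9 against 30.7 and 29.3 CPM. The summed level of the β-cell markers, in which Ins1 weighs most, was 18702 and 19759.9 against 15537.5 and 13866.5 CPM. Of 13 markers of other cell types, 3 had a value here, and their summed level was 1413 and 1346 CPM in the siScramble and 812 and 870.5 CPM in the siTbk1 libraries. Nearly all of that sum was glucagon (Gcg, 803 to 1406 CPM), which was above Iapp in the siScramble and below it in the siTbk1 libraries. The fibroblast marker Pdgfra was higher in both siTbk1 libraries, with 6.83 and 5.46 CPM in the siScramble and 8.82 and 8.38 CPM in the siTbk1 libraries. The macrophage marker Cd68 was at most 0.335 CPM. The part of these marker differences in the results below was not tested.

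Mitochondria carry their own ribosome, which translates the few mRNAs of the mitochondrial genome, all of them for subunits of the respiratory chain and ATP synthase. Its ribosomal RNAs are transcribed from mitochondrial DNA, whereas all of its proteins are encoded in the nucleus, made in the cytosol and imported. Some of these proteins descend from bacterial ribosomal proteins and others exist only in mitochondria. In β-cells, respiratory chain activity couples glucose metabolism to insulin secretion.

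The comparison of siTbk1-treated with siScramble-treated cells asks how the level of each of these mRNAs differs when Tbk1 is silenced. Mrpl43 was the only member to pass both an adjusted p under 0.05 and a fold change of 1.5, and it was lower in siTbk1-treated cells. Most differences were smaller, and more of them were downward than upward. At an adjusted p under 0.05 alone, 29 of the 73 tested genes fell, 4 rose and 40 passed in neither direction.

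These counts are read against all tested genes. With the 1.5-fold limit, 6.18% of all genes were called lower and 4.81% higher, against 1 and 0 of 73 members. No member rose by 1.5-fold at an unadjusted p under 0.05 either, and DESeq2 called 0 higher. Without the fold limit, 24.8% of all genes were lower and 24.4% higher by edgeR's quasi-likelihood test, against 39.7% and 5.48% of the members. DESeq2 at the same threshold gave 23 members lower and 2 higher. The median log2 fold change of the members was -0.079, with lower and upper quartiles of -0.24 and 0.029, beside a median of 0.0071 over all tested genes. Of the 73 members, 49 were below zero (67.1%), beside 49.2% of all tested genes. Both siTbk1 libraries lay below both siScramble libraries for 38 members (52.1%, beside 37.9% of all genes) and above them for 16 (21.9%, beside 38.7%), and the groups overlapped for 19.

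**Figure D1:**
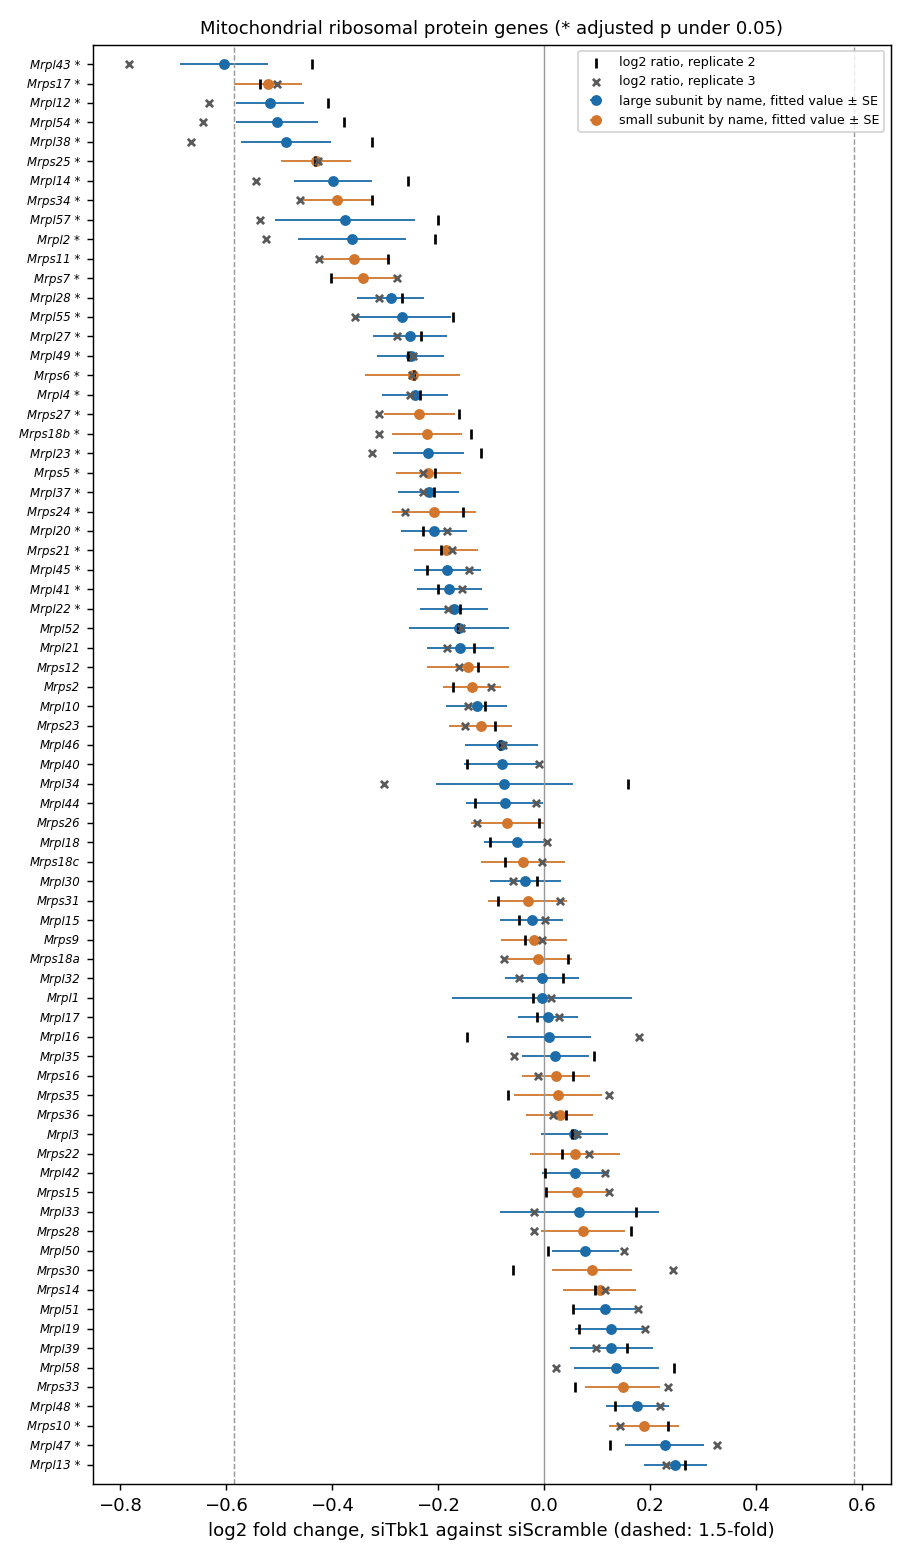
Log2 fold change of each of the 73 tested mitochondrial ribosomal protein genes, siTbk1 against siScramble, with the fitted value ± SE (circles and lines) and the log2 ratio of the libraries numbered 2 and of those numbered 3. Asterisks mark an adjusted p under 0.05, dashed lines a 1.5-fold change. The values run from -0.60 for Mrpl43 to 0.25 for Mrpl13, and only Mrpl43 lies past a dashed line.

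Among the large subunit genes, 18 of 44 fell and 3 rose. Mrpl43, a mitochondria-specific protein, had normalised read counts of 1521 and 1658 in the siScramble and 1123 and 963 in the siTbk1 libraries. Its level was 34.2% lower, with no overlap between the groups (log2 fold change -0.60, SE 0.083, adjusted p = 0.000112 by edgeR's quasi-likelihood test). The fall lay close to the 1.5-fold limit, and without siScramble replicate 3 it was -0.54 and without siTbk1 replicate 3 it was -0.50, so the gene was then not called. Without siTbk1 replicate 2, 4 members were called lower, namely Mrpl43, Mrpl12, Mrpl54 and Mrpl38. The table places Mrpl43 at chr1:264755538-264756547 of rn6 on the minus strand, where it overlaps Twnk, the mitochondrial DNA helicase, on the other strand.

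Mrpl12 forms the flexible stalk that recruits translation factors. It had 3471 and 3724 normalised reads in the siScramble and 2617 and 2403 in the siTbk1 libraries (log2 fold change -0.52, SE 0.065, adjusted p = 6.2e-05, edgeR). Mrpl54, a mitochondria-specific protein, had 1493 and 1563 against 1149 and 999 (log2 fold change -0.50, SE 0.078, adjusted p = 0.000239, edgeR). Mrpl38, also mitochondria-specific, had 1269.9 and 1362 against 1013.5 and 858 (log2 fold change -0.49, SE 0.086, adjusted p = 0.00058, edgeR). For all of these genes both siTbk1 libraries lay below both siScramble libraries, and siTbk1 replicate 3 was the lowest of the 4 libraries.

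Mrpl14, a protein of bacterial type at the interface of the subunits, fell by 0.40 on the log2 scale (SE 0.074, adjusted p = 0.000856, edgeR), from 1829.95 and 2035 to 1531 and 1395 normalised reads, with estimated counts that were not whole numbers (fractional counts). Mrpl57, a small mitochondria-specific protein, had 297 and 382 normalised reads in the siScramble and 258 and 263 in the siTbk1 libraries (log2 fold change -0.38, SE 0.13, adjusted p = 0.0328, edgeR). It did not pass with DESeq2 (adjusted p = 0.0848) or with the trend along genomic span removed (adjusted p = 0.0906, edgeR). Nor did it pass without siScramble replicate 3, siTbk1 replicate 2 or siTbk1 replicate 3 (log2 fold changes -0.19, -0.38 and -0.39). The other 12 Mrpl genes that fell did so by 0.17 (Mrpl22) to 0.36 (Mrpl2) on the log2 scale, among them Mrpl45, which lies near the exit of the peptide tunnel at the inner membrane (log2 fold change -0.18). Mrpl45 did not pass with a replicate block (adjusted p = 0.0629, edgeR) or with the trend along genomic span removed (0.15). Nor did it pass without siScramble replicate 2 (log2 fold change -0.11) or siTbk1 replicate 3 (-0.16).

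The 3 large subunit genes that rose did so by less than the leading falls. Mrpl13, a protein of bacterial type, had 2142 and 2234 normalised reads in the siScramble and 2575 and 2619 in the siTbk1 libraries (log2 fold change 0.25, SE 0.059, adjusted p = 0.00431, edgeR). Mrpl47, also of bacterial type, had 1645 and 1658 against 1793 and 2079.9 (log2 fold change 0.23, SE 0.075, adjusted p = 0.0239). Mrpl48, a mitochondria-specific protein, had 2185 and 2150.2 against 2399 and 2501 (log2 fold change 0.18, SE 0.060, adjusted p = 0.0275). In each case both siTbk1 libraries were above both siScramble libraries. Mrpl13 passed an adjusted p of 0.05 under every alternative that used this threshold alone, whereas Mrpl47 did not pass with library size alone (adjusted p = 0.0664, edgeR) or without siTbk1 replicate 3 (log2 fold change 0.12, adjusted p = 0.305). Mrpl48 did not pass with DESeq2 (adjusted p = 0.0614), or by edgeR with a replicate block (0.0797), library size alone (0.089) or removal of the trend along genomic span (0.133). Nor did it pass without any 1 of the 4 libraries (log2 fold changes 0.15 to 0.19). Mrpl58, a release factor that rescues stalled mitochondrial ribosomes (log2 fold change 0.14, adjusted p = 0.182), Mrpl39 (0.13, adjusted p = 0.205) and Mrpl19 (0.13, adjusted p = 0.144) had the next values and did not pass the test. Mrpl17, among the Mrpl genes with the most reads, had 3529.8 and 3618 against 3497 and 3689 normalised reads (log2 fold change 0.0073, adjusted p = 0.926), with overlapping groups and a sign that turned with the scaling.

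**Figure D2:**
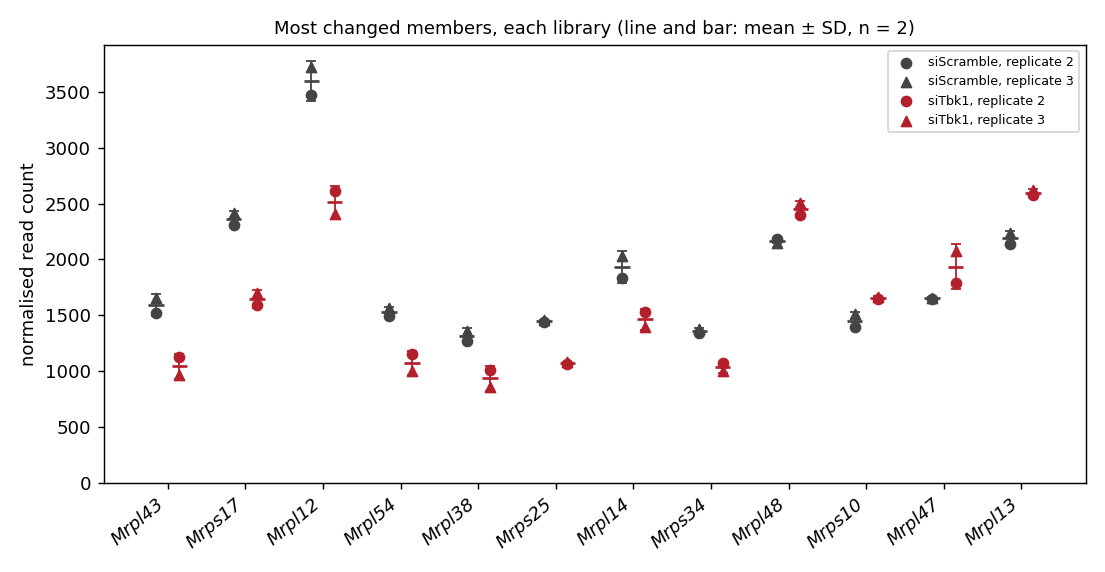
Normalised read counts of the 8 members with the largest falls and the 4 that rose, in each of the 4 libraries, with the mean ± SD of each group (n = 2). These 12 genes were chosen by their change, and their siScramble and siTbk1 libraries do not overlap. Without overlap, siTbk1 lies below siScramble for 37.9% of all tested genes and above it for 38.7%. Mrpl12 falls from 3471 and 3724 to 2617 and 2403.

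Among the 29 tested small subunit genes, 11 fell, 1 rose and 17 passed in neither direction, and none reached the 1.5-fold limit (0 also at an unadjusted p under 0.05 and 0 with DESeq2). Mrps17, a protein of bacterial type that binds ribosomal RNA, fell furthest, from 2309 and 2411 normalised reads in the siScramble to 1592 and 1701 in the siTbk1 libraries (log2 fold change -0.52, SE 0.064, adjusted p = 5.58e-05, edgeR). It also had fractional counts, as can arise where a read fits several loci, and how far this affects its level was not tested. Mrps25, a mitochondria-specific protein, fell from 1439 and 1454 to 1066 and 1080.5 normalised reads (log2 fold change -0.43, SE 0.066, adjusted p = 0.000232, edgeR), with the same-numbered libraries giving log2 ratios of -0.43 and -0.43. For both genes the gap between the groups exceeded the distance between the libraries of a group.

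Mrps34, also mitochondria-specific, had 1338 and 1375 against 1068.5 and 999 normalised reads (log2 fold change -0.39, SE 0.070, adjusted p = 0.000673, edgeR). The mRNAs of the bacterial-type proteins Mrps11 (log2 fold change -0.36, fractional counts), Mrps7 (-0.34) and Mrps6 (-0.25) also fell. So did that of Mrps27 (-0.24), a pentatricopeptide repeat protein that binds RNA. Mrps6 did not pass with DESeq2 (adjusted p = 0.102) or a replicate block (0.0519, edgeR), or without siScramble replicate 3 (log2 fold change -0.19) or siTbk1 replicate 2 (-0.20). Mrps27 did not pass without siScramble replicate 3 (-0.17) or siTbk1 replicate 3 (-0.22). Mrps10, of bacterial type, was the only small subunit gene to rise, from 1397 and 1507 to 1644 and 1664 normalised reads (log2 fold change 0.19, SE 0.066, adjusted p = 0.0324, edgeR). Mrps10 did not pass with DESeq2 (adjusted p = 0.0878), by which 0 Mrps genes rose, or by edgeR with a replicate block (0.0732) or library size alone (0.101). Nor did it pass without siScramble replicate 2 (log2 fold change 0.13), siTbk1 replicate 2 (0.19) or siTbk1 replicate 3 (0.18). Mrps33 (0.15), Mrps14 (0.10), Mrps30 (0.090), Mrps28 (0.073) and Mrps15 (0.062) had positive values that did not pass. Mrps2, with the most reads of any Mrps gene, did not pass at -0.14 (adjusted p = 0.0569, edgeR; 0.0142 with library size alone), nor did Mrps9 at -0.020 (adjusted p = 0.813).

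Some symbols do not match the place of the protein in the ribosome. Mrps18a and Mrps30 encode proteins that sit in the large subunit, with log2 fold changes of -0.012 (adjusted p = 0.892) and 0.090 (adjusted p = 0.342). Mrps36 is now known as Kgd4, a subunit of the 2-oxoglutarate dehydrogenase complex of the citric acid cycle, and had 1424 and 1452 against 1465 and 1469 normalised reads (log2 fold change 0.029, adjusted p = 0.732). None of the 3 passed the test. The sister genes of Mrps18a, Mrps18b and Mrps18c, had log2 fold changes of -0.22 (adjusted p = 0.0156, edgeR) and -0.039 (adjusted p = 0.712).

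The subunits were similar in the share of genes that fell, 40.9% of Mrpl and 37.9% of Mrps genes. Their medians were -0.080 and -0.070 on the log2 scale. With Mrps18a and Mrps30 counted as large subunit proteins and Mrps36 left out, 18 of 46 large subunit genes fell (median -0.077) and 11 of 26 small subunit genes fell (median -0.13). Summed over genes, the large subunit mRNAs took 1723 and 1739 CPM in the siScramble and 1606 and 1604 CPM in the siTbk1 libraries, a mean difference of -7.28%. The small subunit mRNAs took 1161 and 1173 against 1075 and 1087 CPM, a mean difference of -7.33%. For both sums the groups did not overlap. The ratio of the large to the small subunit sum was 1.48 and 1.48 in the siScramble and 1.49 and 1.47 in the siTbk1 libraries, and here the groups overlapped. With 2 libraries a group, an exact permutation test of a single value cannot go below p = 0.33, so no test is given for the sums.

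Split by the origin of the encoded protein, the mRNAs of 18 of 44 bacterial-type members fell and 3 rose (median -0.10). Those of 11 of 28 mitochondria-specific members fell and 1 rose (median -0.080). Of all tested genes, 24.8% fell and 24.4% rose. Within the large subunit by name, the bacterial-type and mitochondria-specific medians were -0.063 (26 genes) and -0.12 (18 genes). Within the small subunit by name, which includes Mrps18a and Mrps30, they were -0.14 (18 genes) and -0.050 (10 genes). The order of the classes was thus opposite in the subunits as named. No test was made of these differences, and the split was not repeated with subunits by structure.

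Unlike the mRNAs of the ribosomal proteins, the RNAs made inside the mitochondrion were more abundant in the siTbk1 libraries. The rRNA of the small subunit, identified by its position on the mitochondrial genome, had 11060.5 and 10959 normalised reads in the siScramble and 16022 and 16993 in the siTbk1 libraries (log2 fold change 0.58, SE 0.052, adjusted p = 7.45e-06, edgeR). The rRNA of the large subunit had 13685 and 12651 against 18303 and 19047 (log2 fold change 0.50, SE 0.056, adjusted p = 2.92e-05, edgeR). All 13 mitochondrially encoded mRNAs rose as well (median log2 fold change 0.45), none of them by 1.5-fold (0 also at an unadjusted p under 0.05 and 0 with DESeq2). The summed rRNA was 574 and 548 CPM in the siScramble and 796 and 836 CPM in the siTbk1 libraries, so the ratio of rRNA to ribosomal protein mRNA was 0.199 and 0.188 against 0.297 and 0.311. The libraries were made from polyadenylated RNA, so these rRNA counts depend on how much of it was captured through its short tail and are not the total rRNA.

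**Figure D3:**
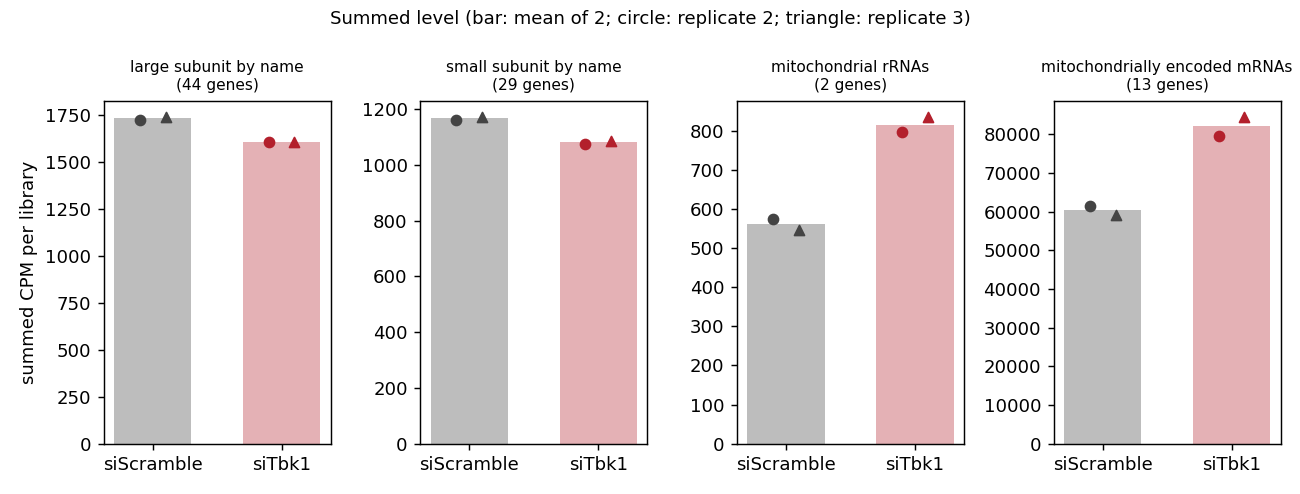
Summed CPM of the Mrpl genes, the Mrps genes, the 2 mitochondrial rRNAs and the 13 mitochondrially encoded mRNAs in each library, with bars for the mean of 2 libraries and each axis starting at 0. The sums of both subunits are lower in both siTbk1 libraries (mean differences -7.28% and -7.33%), and those of the mitochondrially encoded RNAs are higher (45.5% and 36.1%).

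Genomic span, the stop minus the start of a gene with introns included, was related to the signed log2 fold change. The members are compact, with a median span of 6.83 kb (range 0.735 to 128.7 kb) beside 20.1 kb for all tested genes. Across all tested genes, the log2 fold change correlated with log10 span at Pearson 0.18 and Spearman 0.21, and across the 73 members at 0.33 and 0.32. The values were 0.42 and 0.41 for the 44 Mrpl and 0.20 and 0.16 for the 29 Mrps genes, and 0.31 and 0.30 for the members without Mrps28 and Mrpl30, whose spans are farthest from the median. These are descriptions across genes, since all points share the same 4 libraries.

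All tested genes were divided by span into 4 equal bins. In the shortest bin (up to 6.846 kb), 18 of 37 members fell and 0 rose, with a median of -0.16 beside -0.10 for all genes of that bin, of which 29.9% fell and 13.6% rose. In the next bin (to 20.09 kb) 9 of 24 members fell and 2 rose, with a median of -0.10 beside -0.058, and 30.8% of all genes of the bin fell and 20.7% rose. In the bin after it (to 52 kb) 0 of 6 fell and 2 rose (median 0.058 beside 0.037), where 23% of all genes fell and 27.9% rose. In the longest bin 2 of 6 fell and 0 rose (median -0.028 beside 0.12), where 15.4% of all genes fell and 35.5% rose. Each of these counts of 0 by edgeR was also 0 at an unadjusted p under 0.05 and with DESeq2. The falling members among the longest genes were Mrps27 and Mrps6. With each library's trend along span removed, the median of the members was -0.039 and that of all tested genes 0.0065. Past the adjusted p threshold, 21.9% of the members were then lower and 12.3% higher (16 and 9 genes), beside 23.9% and 23.6% of all tested genes, so the share of members that fell no longer exceeded that of all genes. Mrpl43 then had a log2 fold change of -0.50.

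The shortest genes did not all move. Mrpl34 (0.735 kb) had 309 and 400.4 against 345 and 324 normalised reads (log2 fold change -0.075, adjusted p = 0.659), with overlapping groups. Mrpl41 (0.918 kb) fell by 0.18 on the log2 scale (adjusted p = 0.0284, edgeR). It did not pass with this trend removed (log2 fold change -0.080, adjusted p = 0.327, edgeR), with DESeq2 (adjusted p = 0.0502) or with a replicate block (0.0781, edgeR). Nor did it pass without any 1 of the 4 libraries (log2 fold changes -0.21 to -0.16). Of the longest, Mrps28 (128.7 kb) and Mrpl30 (87.46 kb) had log2 fold changes of 0.073 and -0.035 and did not pass.

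**Figure D4:**
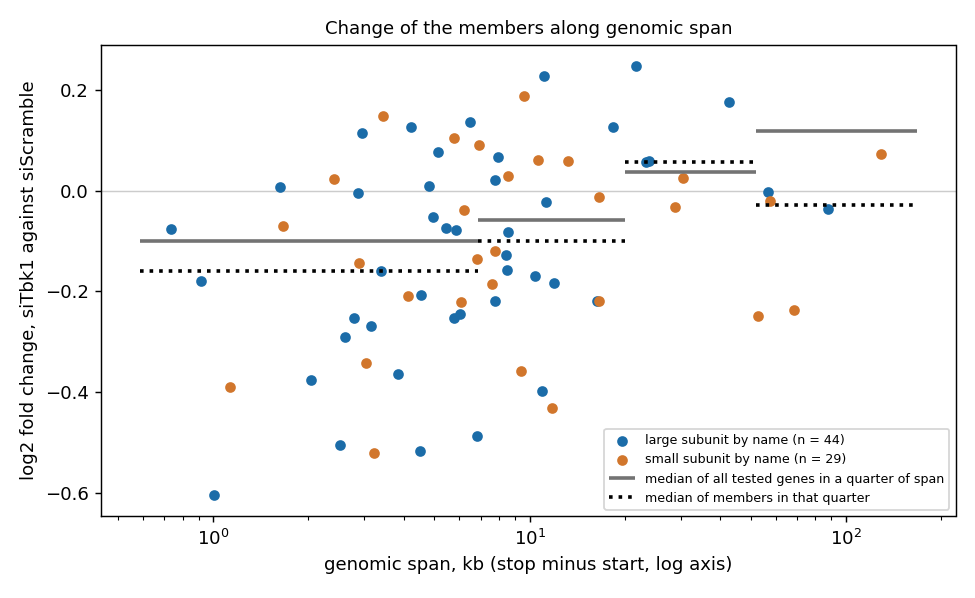
Log2 fold change of the 73 members against genomic span (log axis, kb), with large subunit genes in blue and small subunit genes in orange. Grey lines give the median of all tested genes and dotted lines that of the members in each of 4 equal bins of span set on all tested genes, from -0.10 and -0.16 in the shortest bin to 0.12 and -0.028 in the longest.

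Many of these genes share a start region with a neighbour on the other strand. For 20 of the 73 members, the start of another tested protein-coding gene on the other strand lay within 1000 bases of the member's start, either before it or, where the genes overlap (Mrpl13, Mrpl21, Mrpl43 and Mrps7), inside the member, and the change had the same sign in 17 of the 20 pairs, with Mrpl46 and Mrps11, which face each other, counted from both sides. Some of these values were very small, such as -0.0044 for Mrpl32 and -0.034 for its partner Psma2. The signs were not counted for such pairs among other genes, so whether this share is particular to the members was not tested. Of the partners, 8 fell and 1 rose (median -0.17), where 24.8% of all tested genes fell and 24.4% rose. These partners include 2 members, Mrpl46 and Mrps11, and Mrps11 is among the 8 that fell. Mrps12 and the mitochondrial seryl-tRNA synthetase Sars2 start 15 bases apart, and their log2 fold changes were -0.14 (adjusted p = 0.143) and -0.57 (adjusted p = 0.00746, edgeR). Mrpl43 and Twnk start 48 bases apart, with -0.60 and -0.17 (adjusted p = 0.0408, edgeR). Mrps11 and Mrpl46, 71 bases apart, had -0.36 and -0.081 (adjusted p = 0.356), so members of a pair could differ in size.

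Fau, which encodes a ubiquitin-like protein fused to a cytosolic ribosomal protein, starts 155 bases from Mrpl49, and the changes were -0.56 (adjusted p = 0.000148, edgeR) and -0.25. Mrpl21 and Ighmbp2 had -0.16 and -0.54, and Mrps34 and Eme2, a DNA repair nuclease subunit, had -0.39 and -0.62. Mrpl13, the member with the largest rise, starts 78 bases from Mtbp, which rose by 0.23 on the log2 scale (adjusted p = 0.0431, edgeR). Mrpl47 rose while Ndufb5, a complex I subunit that starts 265 bases away, had a log2 fold change of 0.023 (adjusted p = 0.768). Of the 73 members, 10 overlap a protein-coding gene on the other strand, among them Mrpl43, Mrpl13, Mrpl21 and Mrpl49, and none overlaps a protein-coding gene on the same strand (0). The library kit marks strand, but whether the counting used it is not given in the sources used here, so reads of these overlapping genes may be mixed.

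**Figure D5:**
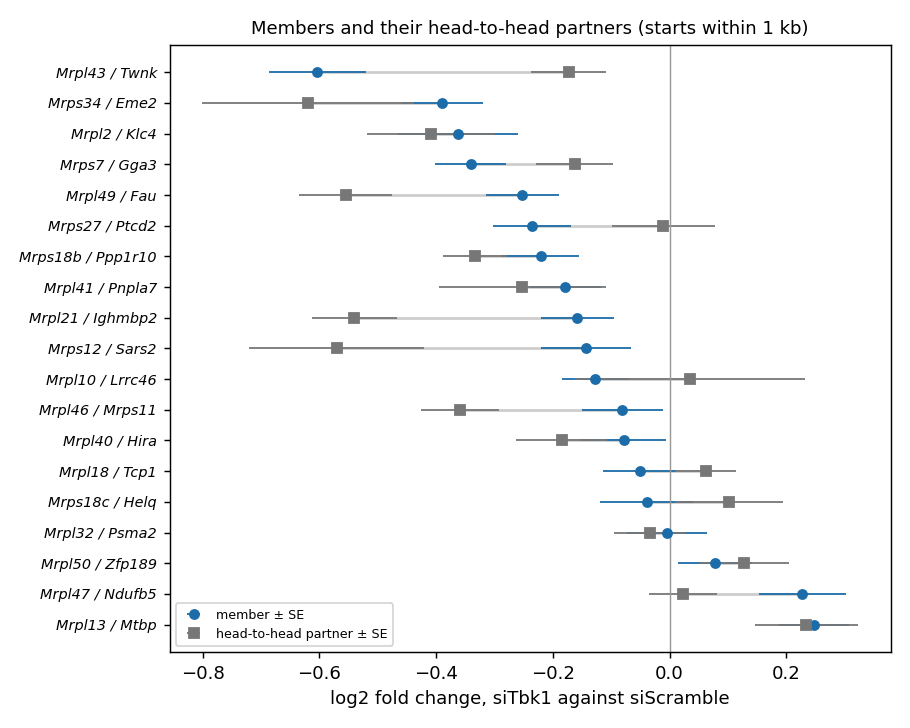
Log2 fold change ± SE of members (blue circles) and of the protein-coding gene that starts within 1000 bases on the other strand (grey squares), with Mrpl46 and Mrps11 drawn once. Mrpl43 lies at -0.60 with Twnk at -0.17, and Mrpl13 at 0.25 with Mtbp at 0.23.

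Promoter sequences were taken from RefSeq (GRCr8) as 300 bases, 250 before and 50 after the start, and matched 59 of the 74 members by symbol (61 windows). They were searched on both strands for letters bound by factors known at promoters of nuclear genes for mitochondrial proteins, CCGGAAG for ETS factors such as GABP and AAGATGGC for YY1, and for the NRF1 motif by its consensus. The ETS letters stood in 31.1% of the members' windows, beside 16.9% of the windows of tested genes and 8.75% of all windows in the table. The YY1 letters stood in 23% (beside 5.24% and 3.17%) and the NRF1 motif in 8.2% (beside 2.73% and 1.24%). No ETS and YY1 matches overlapped in these windows (0). Members that fell and members that passed in neither direction held the ETS letters in 29.6% of 27 and 29% of 31 windows and the YY1 letters in 22.2% and 19.4%. A match is a description of the letters and not a bound site. The TATA box letters TATAAA stood in 13.1% of the members' windows, beside 6.56% for tested genes and 14.2% for all windows.

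The windows of the 3 members with the largest falls and the 3 with the largest rises among the matched members are shown to set the start regions of both directions side by side, 5′ to 3′ on the gene's strand, with ETS and YY1 letters of either strand in capitals.
Mrps17, chr12:32587763-32588062, strand -: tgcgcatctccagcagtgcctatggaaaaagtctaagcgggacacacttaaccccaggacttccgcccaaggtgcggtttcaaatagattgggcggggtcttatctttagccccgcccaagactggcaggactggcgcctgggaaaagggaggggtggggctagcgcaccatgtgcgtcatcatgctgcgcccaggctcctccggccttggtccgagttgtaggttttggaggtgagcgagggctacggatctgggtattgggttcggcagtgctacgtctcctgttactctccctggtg
Mrpl12, chr10:106256496-106256795, strand +: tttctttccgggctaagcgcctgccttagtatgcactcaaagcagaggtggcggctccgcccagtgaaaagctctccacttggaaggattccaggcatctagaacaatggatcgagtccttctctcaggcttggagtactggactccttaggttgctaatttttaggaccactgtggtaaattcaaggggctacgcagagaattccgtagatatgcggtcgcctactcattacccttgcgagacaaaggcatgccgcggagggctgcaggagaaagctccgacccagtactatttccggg
Mrpl54, chr7:9103275-9103574, strand +: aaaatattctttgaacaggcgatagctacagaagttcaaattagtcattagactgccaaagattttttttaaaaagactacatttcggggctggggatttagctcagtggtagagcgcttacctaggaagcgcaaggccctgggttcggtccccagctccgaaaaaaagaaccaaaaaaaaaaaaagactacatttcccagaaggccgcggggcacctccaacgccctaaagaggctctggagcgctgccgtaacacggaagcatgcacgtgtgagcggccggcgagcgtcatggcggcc
Mrpl47, chr2:117447312-117447611, strand -: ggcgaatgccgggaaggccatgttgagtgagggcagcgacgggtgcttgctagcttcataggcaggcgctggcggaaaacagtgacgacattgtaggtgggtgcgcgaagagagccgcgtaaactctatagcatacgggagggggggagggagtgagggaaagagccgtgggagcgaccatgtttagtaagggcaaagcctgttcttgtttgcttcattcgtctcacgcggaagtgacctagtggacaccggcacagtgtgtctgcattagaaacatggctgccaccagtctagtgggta
Mrps10, chr9:21122404-21122703, strand -: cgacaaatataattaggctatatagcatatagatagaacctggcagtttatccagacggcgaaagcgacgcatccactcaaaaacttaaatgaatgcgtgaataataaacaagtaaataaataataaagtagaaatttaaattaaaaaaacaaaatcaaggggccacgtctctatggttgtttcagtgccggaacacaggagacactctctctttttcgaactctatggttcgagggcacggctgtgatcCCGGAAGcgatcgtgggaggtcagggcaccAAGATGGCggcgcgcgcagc
Mrpl48, chr1:164351327-164351626, strand -: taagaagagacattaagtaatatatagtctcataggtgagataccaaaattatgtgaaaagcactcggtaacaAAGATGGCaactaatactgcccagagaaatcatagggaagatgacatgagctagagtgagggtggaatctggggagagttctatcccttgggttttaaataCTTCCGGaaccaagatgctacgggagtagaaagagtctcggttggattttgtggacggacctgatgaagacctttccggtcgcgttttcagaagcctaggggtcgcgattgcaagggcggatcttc
Of these, Mrps10 and Mrpl48, both of which rose, hold the ETS and the YY1 letters (the ETS letters of Mrpl48 on the other strand), and Mrpl47, which also rose, holds neither. Mrps17, Mrpl12 and Mrpl54 hold neither. Only exact matches to these letters were sought, so near matches are not marked. Among members not shown, Mrps18b and Mrps27, which fell, also hold both, as does Mrps18a, which passed in neither direction. Both stood in 2 of 27 windows of members that fell and 2 of 3 of members that rose. They stood in 1 of 31 windows of members that passed in neither direction and in 1.19% of the windows of tested genes. Mrpl13, which rose most, and Mrpl43, the only called member, had no matched window and are not counted. Whether these letters relate to the direction of change was not tested.

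Other genes of mitochondrial translation did not all move with the ribosomal protein mRNAs. Of 4 other mitoribosomal proteins without an Mrp symbol, Gadd45gip1, a large subunit protein, fell (910.04 and 1019.6 against 674 and 620.2 normalised reads, log2 fold change -0.57, SE 0.086, adjusted p = 0.0002, edgeR). Dap3, a GTP-binding protein of the small subunit, had a log2 fold change of -0.083 (adjusted p = 0.308), Chchd1 of -0.0081 and Ptcd3 of 0.15 (adjusted p = 0.085). Of 26 assembly factors 8 fell (30.8%, beside 24.8% of all tested genes) and 4 rose (15.4%, beside 24.4%), with a median of -0.16. The pseudouridine synthase Rpusd3 (171 and 209 against 117 and 118 normalised reads, log2 fold change -0.69) and the rRNA methyltransferase Nsun4 (-0.59, SE 0.16, fractional counts) were called lower. Nsun4 lay close to the 1.5-fold limit, with 359 and 458 against 315 and 220 normalised reads. Its same-numbered libraries gave log2 ratios of -0.19 and -1.05. The rRNA methyltransferase Mettl15 (0.54) and Mterf3 (0.38) rose.

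Of 15 translation factors and related proteins such as Oxa1l and Slirp, 2 fell (13.3%) and 6 rose (40%), with a median of 0.066. Of all tested genes 24.8% fell and 24.4% rose. The order was the reverse of that among the ribosomal protein genes, but with DESeq2 only 2 were lower and 3 higher. The median span of the list was 19.4 kb beside 6.83 kb for the members, and the part of span in this difference was not tested. Oxa1l, which inserts newly made proteins into the inner membrane and binds the ribosome, was called lower, with 964 and 1064 against 700.1 and 621 normalised reads (log2 fold change -0.61, SE 0.087, adjusted p = 0.00014, edgeR). The elongation factor Tufm fell by 0.15 on the log2 scale (adjusted p = 0.0434), Tsfm had a log2 fold change of -0.20 that did not pass (adjusted p = 0.0895), and Guf1 (0.31) and Slirp (0.25) rose. Of 17 mitochondrial tRNA synthetases 4 fell (23.5%, beside 24.8% of all tested genes), with a median of -0.024 over the list. Sars2 (-0.57) and Vars2 (-0.44) fell most, while Nars2 (0.20, adjusted p = 0.319, edgeR) did not pass.

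Of 9 regulators of nuclear genes for mitochondrial proteins, 3 fell and 3 rose (33.3% each, beside 24.8% and 24.4% of all tested genes). The nuclear receptor Esrra was called lower, with 1309 and 1604 normalised reads in the siScramble and 1038 and 842 in the siTbk1 libraries (log2 fold change -0.62, SE 0.11), and Pprc1 fell by 0.41 on the log2 scale. The coactivator Ppargc1a was called higher, with 258 and 244 against 439 and 420.3 (log2 fold change 0.77, SE 0.11). Gabpa, the DNA-binding subunit of GABP, rose by 0.33 on the log2 scale, Yy1 had a log2 fold change of 0.29 (adjusted p = 0.00383, edgeR), Myc fell by 0.37 with fractional counts, and Nrf1 had -0.097 and did not pass.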

How the data were processed

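RNA of 2 siScramble-treated and 2 siTbk1-treated samples of INS-1 832/13 cells was sequenced from stranded libraries. The deposited values are estimated counts per gene that the authors did not scale between libraries, listed with gene positions. Per the labels, the submitters' processing notes name STAR 2.6.1d, Partek and the genome build rn6, while the counting and strand settings are not given in the sources used here. Between 21.1% and 22.3% of values per library lie more than 0.01 from a whole number, and members with such a value in some library are said to have fractional counts.

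Estimated counts were rounded, filtered with filterByExpr (minimum count 10, 13953 of 15172 genes kept), scaled with TMM factors and compared with edgeR's quasi-likelihood test, treatment being the only factor, with Benjamini-Hochberg adjustment over all tested genes (edgeR 4.0.16, limma 3.58.1, R 4.3.3). Called means an adjusted p under 0.05 and at least 1.5-fold; rose and fell mean an adjusted p under 0.05. CPM are per 1000000 reads of the TMM-scaled library, except for marker genes (of the total count). Standard errors were derived from each log2 fold change with its F value. Alternatives were DESeq2 1.42.0, a replicate block, upper quartile factors, library size alone, other filters, glmTreat, a correction for genomic span (a loess trend per library, smoothing span 0.5, taken out through offsets), leaving out members with fractional counts, subunits by structure, and leaving out each sample; a crossed pairing was added after the data were seen. The scripts were tested on simulated data. Figures and promoter searches used Python 3.11.15, pandas 2.3.3 and matplotlib 3.10.9. Neighbours were sought among protein-coding genes, leaving out the 20 genes with spans over 2500000 bases.

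The members and lists were chosen with earlier results of these data known. Genes named are the called members, the 6 most positive and most negative Mrpl and Mrps genes, the 3 with the most reads in each, the 3 shortest and longest, Mrps18a, Mrps30 and Mrps36, and from each other list the called genes and the 2 largest changes each way, of which 1 is not reported here. Mitochondrial rRNAs, start-sharing neighbours, motifs and other genes named were chosen after their values were seen, and the class of Mrpl47 and Mrpl55 was then corrected to bacterial type. The proteomic and islet data of the study were not used here.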

Additional observations from a re-analysis of the deposited data

How the results depend on the processing

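The number of libraries, 2 a group, limits the precision, and so does depth for members with few reads. The replicate numbers did not pair the samples: deviations of same-numbered libraries from their group means correlated at Pearson 0.0041 and Spearman -0.20 over all tested genes, at 0.17 and -0.040 over the members, and at -0.39 and -0.43 over the 7945 genes with a mean log2 CPM of at least 4. With a replicate block, 23 members were lower and 2 higher past an adjusted p of 0.05, and with the crossed pairing 33 and 5. All 29 falling members kept their sign under every alternative, and 16 (span correction) to 29 of them stayed past the threshold, while of the 4 that rose only Mrpl13 stayed past it in all. The cause of the changes below was not tested.

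Members lower past the threshold were 16 with the span correction and 17 to 26 when a library was left out. Members higher were 2 with DESeq2, 1 with library size alone, 9 with the span correction and 1 to 4 when a library was left out. Members called lower were 0 with glmTreat, 0 with the span correction and 0 to 4 when a library was left out. Among genes past the threshold, 12.1% of the members and 49.6% of all tested genes were higher, 2.94% and 41.4% with library size alone, and 36% and 49.7% with the span correction. The median of the members was -0.13 with library size alone, -0.039 with the span correction and -0.13 to -0.095 without a library. For Mrpl genes it was -0.13, -0.047 and -0.15 to -0.099. For Mrps genes it was -0.12, -0.039 and -0.12 to -0.074, and also -0.10 with no filter, -0.13 by structure and -0.026 without members with fractional counts.

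Reversed values were small. Mrpl17 was -0.040 with library size alone, -0.00069 with no filter and -0.031 to 0.034 without a library. Mrpl34 was 0.030 with the span correction and -0.26 to 0.12 without a library. Mrps18a was 0.025 with the span correction and -0.095 to 0.054 without a library. Mrps28 was -0.039 with the span correction and -0.0051 to 0.15 without a library. Mrps36 was -0.018 with library size alone, and Mrps9 was -0.069 to 0.033 without a library. Over 374 values of 34 named members under alternatives, 315 kept direction and side of the threshold, 38 lost it, 8 gained it and 13 reversed.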
